A study of Mus musculus with 64 samples.

Results

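Collagen chains are the protein subunits of collagens. They were taken as the genes whose symbol has the form Col, a type number, the letter a and a chain number, with at least 100 estimated counts summed over all 64 libraries. Of 44 genes with such a symbol 37 reached that minimum, out of 19521 genes in the table: 11 fibrillar chains, 8 basement membrane chains and 18 chains of other collagens. The 7 chains under the minimum were Col9a1, Col19a1, Col10a1, Col9a2, Col9a3, Col6a4 and Col17a1, with 12 to 99.05 summed counts. The members just above it were Col2a1 with 107 and Col25a1 with 135.

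The RNA came from 4 tissues, white adipose tissue (WAT), liver, heart and muscle, of male mice labelled C57BL/6 and, in the treatment notes, C57BL/6J. The 4 groups of mice were labelled KO on high-sucrose diet (HSD), labelled KO on chow, wild type (CTRL) on HSD and CTRL on chow, with 4 mice each, so that each tissue had 16 libraries in 4 groups. The mutants were Pklr-/- by the treatment notes; Pklr encodes the liver and red cell form of pyruvate kinase. All mice ate chow until 8 weeks of age, then chow or HSD for another 8 weeks, and were killed at 16 weeks. The sources used here do not give the fat depot, the muscle sampled or the part of Pklr that was deleted.

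A collagen molecule is a triple helix of chains, which may be copies of a single chain or products of different genes. Fibrillar collagens (types I, II, III, V, XI and their relatives) assemble into the banded fibrils that give tissues tensile strength. Type IV collagen forms the sheet-like network of basement membranes, which in fat surround every adipocyte, and types XV and XVIII are proteoglycans of the basement membrane zone. Type VI collagen forms beaded microfilaments between the basement membrane and the fibrils and is a major part of the matrix around adipocytes. The remaining chains coat fibrils (types XII, XIV and XVI), form hexagonal lattices (type VIII), anchor epithelia (type VII) or cross the cell membrane (types XIII, XXIII and XXV).

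Total estimated counts ran between 5724366 and 12188623 per library. Each tissue carried its own markers: Adipoq, the adipocyte hormone adiponectin, was at 4180 to 5661 TPM (transcript abundance scaled for transcript length and library size) in WAT and at most 37.8 TPM elsewhere, Alb (albumin) was at 11570 to 67026 TPM in liver, Myh6 (cardiac myosin) at 1433 to 3045 TPM in heart and Ckm (muscle creatine kinase) at 1159 to 2692 TPM in muscle. Pklr went against the labels. In liver it stood at 314 to 459 TPM in labelled KO mice on HSD, 147 to 268 TPM in labelled KO mice on chow, 154 to 263 TPM in CTRL mice on HSD and 61.6 to 141 TPM in CTRL mice on chow, so the lowest labelled KO library was above the highest CTRL library within each diet. Some libraries held traces of other cell types. Muscle libraries all held adipocyte RNA, with Adipoq at 11.9 to 37.8 TPM, against at most 2.26 TPM in heart. Replicate 2 of labelled KO WAT on HSD had 9.68 TPM of the epithelial marker Epcam, against a WAT median of 0.376 TPM. Replicate 4 of labelled KO WAT on chow had 20.3 TPM of the lymphocyte marker Cd79a, against a WAT median of 2.30 TPM. 2 more libraries stood out in markers of liver or heart. Replicate 3 of labelled KO WAT on chow had 272 TPM of Alb, against 9.99 to 44.1 TPM in the other 15 WAT libraries, and replicate 2 of labelled KO muscle on chow had a summed level of 5 cardiomyocyte markers of 1197 TPM, against 28.9 to 53.3 TPM in the other 15 muscle libraries.

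Members of the collagen family often lie side by side in the genome. In the GENCODE M21 annotation of GRCm38, Col4a1 (ENSMUSG00000031502, chr8:11198423-11312826, minus strand) and Col4a2 (chr8:11312805-11449287, plus strand) start head to head, and their transcripts overlap by 22 bases. Col6a1 (chr10:76708792-76726168) and Col6a2 (chr10:76595762-76623630) lie on the minus strand of chromosome 10, 85161 bases apart. Col3a1 (chr1:45311538-45349706, plus strand) and Col5a2 (chr1:45374321-45503282, minus strand) lie 24614 bases apart on chromosome 1. Exons of 3 members overlap exons of another gene on the same strand and exons of 7 members overlap one on the opposite strand; whether the counting used strand is not given in the sources used here, so reads from such stretches cannot be told apart.

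The 250 bases before the RefSeq start site (GRCm38.p6) are shown for 3 chains on which the results turn: Col6a1, which fell on HSD in WAT of both genotypes, and Col1a2 and Col3a1, which make the main fibrils. Capitals mark a match, on either strand, to CCAAT or to TATAAA, and Col6a1 holds neither.
Col6a1, chr10:76726045-76726294, minus strand: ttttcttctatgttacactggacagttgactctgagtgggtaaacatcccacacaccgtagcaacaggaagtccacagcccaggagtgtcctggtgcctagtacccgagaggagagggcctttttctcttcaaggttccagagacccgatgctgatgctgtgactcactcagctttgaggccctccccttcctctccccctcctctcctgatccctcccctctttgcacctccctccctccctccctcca
Col1a2, chr6:4505368-4505617, plus strand: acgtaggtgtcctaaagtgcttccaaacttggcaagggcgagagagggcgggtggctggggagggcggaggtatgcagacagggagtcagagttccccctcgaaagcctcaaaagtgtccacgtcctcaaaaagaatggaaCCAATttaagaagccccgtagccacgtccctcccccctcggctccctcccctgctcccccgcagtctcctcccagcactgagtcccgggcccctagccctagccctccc
Col3a1, chr1:45311288-45311537, plus strand: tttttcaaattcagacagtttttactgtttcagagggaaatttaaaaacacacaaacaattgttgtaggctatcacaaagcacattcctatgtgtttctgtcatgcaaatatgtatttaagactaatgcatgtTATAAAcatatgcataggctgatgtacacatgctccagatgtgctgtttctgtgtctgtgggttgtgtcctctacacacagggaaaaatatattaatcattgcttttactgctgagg
The match begins 109 bases before the start in Col1a2 (CCAAT) and 117 bases before it in Col3a1 (TATAAA). The RefSeq table held windows for 29 of the 37 chains. CCAAT was present for 10 of these 29 chains and in 33.8% of all 32851 windows, and TATAAA for 3 of the 29 and in 12.4% of all windows. Both windows of the head-to-head pair Col4a1 and Col4a2 hold a CCAAT.

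WAT held far more collagen RNA than the other tissues. The summed level of the 37 chains had a median of 1719 TPM in WAT (lowest 1011, highest 3457), 232 TPM in muscle (124 to 313), 179 TPM in liver (113 to 205) and 150 TPM in heart (84.3 to 211), with n = 16 libraries each. Every WAT library lay above every library of the other tissues, and those 3 overlapped. In these bulk samples, more cells that make collagen and more collagen RNA per cell cannot be told apart, here or in any comparison that follows. The ratio of tissues also depends on what fills the rest of a library: mitochondrially encoded genes took 6.43 to 11.1% of counts in WAT, 6.23 to 10.6% in liver, 36.4 to 48.5% in heart and 25.2 to 31.0% in muscle.

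Of the 37 chains 23 had their highest median TPM in WAT, 10 in muscle, 3 in liver and 1 in heart. By CPM, counts scaled for library size and composition (TMM) but not for transcript length, 17 were highest in WAT. On that scale 31 kept the same highest tissue. For 14 of the 23, no WAT library overlapped the tissue that came second. Such a count was not made over all genes. Col3a1, the chain of type III collagen, led: its median was 452 TPM in WAT (201 to 886), then 44.2 TPM in muscle, 26.3 TPM in heart and 5.02 TPM in liver, with muscle and heart overlapping. Col1a1 and Col1a2, the chains of type I collagen, kept the same order, at 45.2 and 127 TPM in WAT, 18.6 and 44.4 TPM in muscle, 4.26 and 10.4 TPM in heart and 0.565 and 1.91 TPM in liver, and for both WAT and muscle overlapped. Col4a1, a chain of the common type IV collagen, was at 223 TPM in WAT, 27.7 TPM in heart, 19.6 TPM in muscle and 3.08 TPM in liver. Col5a3, a type V chain, was at 126 TPM in WAT (69.3 to 215) and at a median of 2.91 TPM or less in the other tissues. Col6a5, a type VI chain, was at 11.6 TPM in WAT (4.77 to 42.0) and at no more than 0.146 TPM in any library of another tissue.

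Most of the collagen RNA of liver came from a single chain. Col18a1, whose protein core yields the fragment endostatin, was at a median of 135 TPM in liver (86.4 to 169), 63.2 TPM in WAT (31.8 to 93.8), 2.98 TPM in muscle and 1.44 TPM in heart, and made up 77.5% of the summed collagen TPM of liver. Its liver and WAT ranges overlapped. Col27a1 and Col13a1, a fibrillar and a transmembrane chain, also had their highest median in liver, at 1.11 and 1.04 TPM, with their liver ranges overlapping those of the next tissue. Of the 10 chains highest in muscle 5 were apart from the second tissue, and some of these were near 0 elsewhere. Col12a1 and Col8a2 were not near 0 in WAT, at medians of 1.82 and 1.35 TPM, against 5.61 and 1.91 TPM in muscle. Col22a1, known from tissue junctions such as that of muscle and tendon, was at 4.95 TPM in muscle (3.45 to 7.69) and 0.108 TPM in WAT, and Col11a1 and Col11a2, type XI chains best known from cartilage, were at 1.39 and 1.43 TPM in muscle and at or below 0.113 TPM in median elsewhere. Col2a1, the main cartilage chain, reached at most 0.336 TPM in any muscle library. By median Col8a1 was highest in heart, at 3.48 TPM, with muscle at 3.32 TPM and WAT at 3.05 TPM, but the ranges overlapped and by mean WAT was highest, at 4.04 TPM, with heart at 3.50 TPM.

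**Figure D1:**
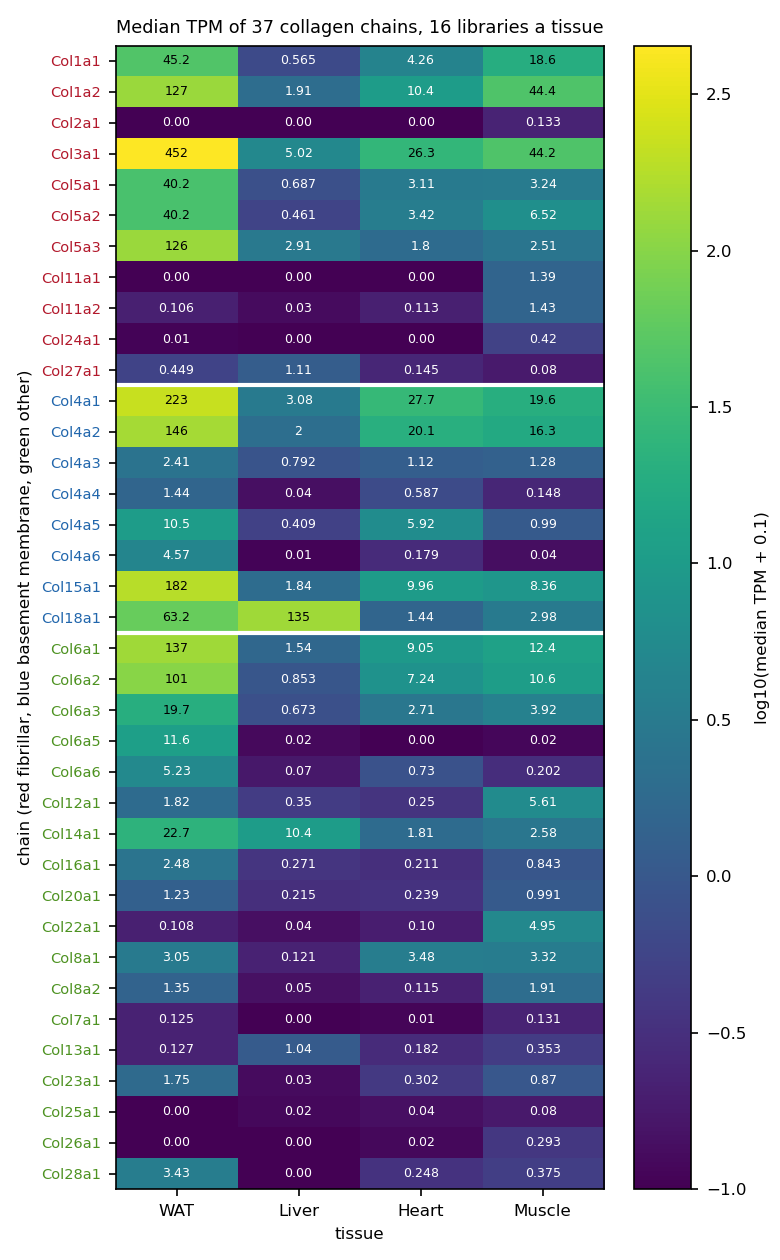
Median TPM of each of the 37 collagen chains (rows) over the 16 libraries of each tissue (columns: WAT, liver, heart, muscle), as colour on a log10(median TPM + 0.1) scale, with the class of each chain marked by the colour of its name. The WAT column is the brightest for 23 chains, liver is bright for Col18a1, and Col22a1, Col11a1 and Col11a2 stand out in muscle.

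The classes divided differently in each tissue. On average fibrillar, basement membrane and other chains made up 44.5%, 36.4% and 19.1% of summed collagen TPM in WAT, 54.6%, 23.0% and 22.4% in muscle, 33.5%, 47.1% and 19.3% in heart, and 7.88%, 82.5% and 9.58% in liver. Chains of the same collagen kept similar ratios within WAT. Col1a2 to Col1a1 averaged 3.33 ± 0.29 in labelled KO mice on HSD, 2.60 ± 0.28 in labelled KO mice on chow, 2.91 ± 0.45 in CTRL mice on HSD and 2.90 ± 0.53 in CTRL mice on chow (ratio of TPM, SD, n = 4 each), and the labelled KO groups were just apart, at 2.95 to 3.65 on HSD, against 2.29 to 2.94 on chow. Col6a1 to Col6a2 averaged 1.26 ± 0.17 in labelled KO mice on HSD, 1.27 ± 0.08 in labelled KO mice on chow, 1.28 ± 0.11 in CTRL mice on HSD and 1.36 ± 0.10 in CTRL mice on chow, with all groups overlapping.

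In WAT the summed collagen level was lowest on HSD. It was 1011 to 1466 TPM in labelled KO mice on HSD (mean 1236 ± 198, SD, n = 4), against 2394 to 3457 TPM in labelled KO mice on chow (2944 ± 495), and 1269 to 1795 TPM in CTRL mice on HSD (1506 ± 254), against 1545 to 2761 TPM in CTRL mice on chow (2372 ± 561). The labelled KO diet groups did not overlap, and the CTRL diet groups overlapped through 1 low library, replicate 1 on chow. All 3 classes showed it in labelled KO mice: fibrillar sums were 407 to 693 TPM on HSD, against 1052 to 1536 TPM on chow, basement membrane sums 444 to 525 TPM on HSD, against 824 to 1189 TPM on chow, and sums of the other chains 160 to 248 TPM on HSD, against 517 to 821 TPM on chow. The other chains also took a smaller part of the collagen total, at 16.97% ± 1.23 in labelled KO mice on HSD, against 22.7% ± 1.6 on chow, and 15.8% ± 1.0 in CTRL mice on HSD, against 21.0% ± 1.4 on chow (SD, n = 4 each). These sums are descriptions and were not tested.

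**Figure D2:**
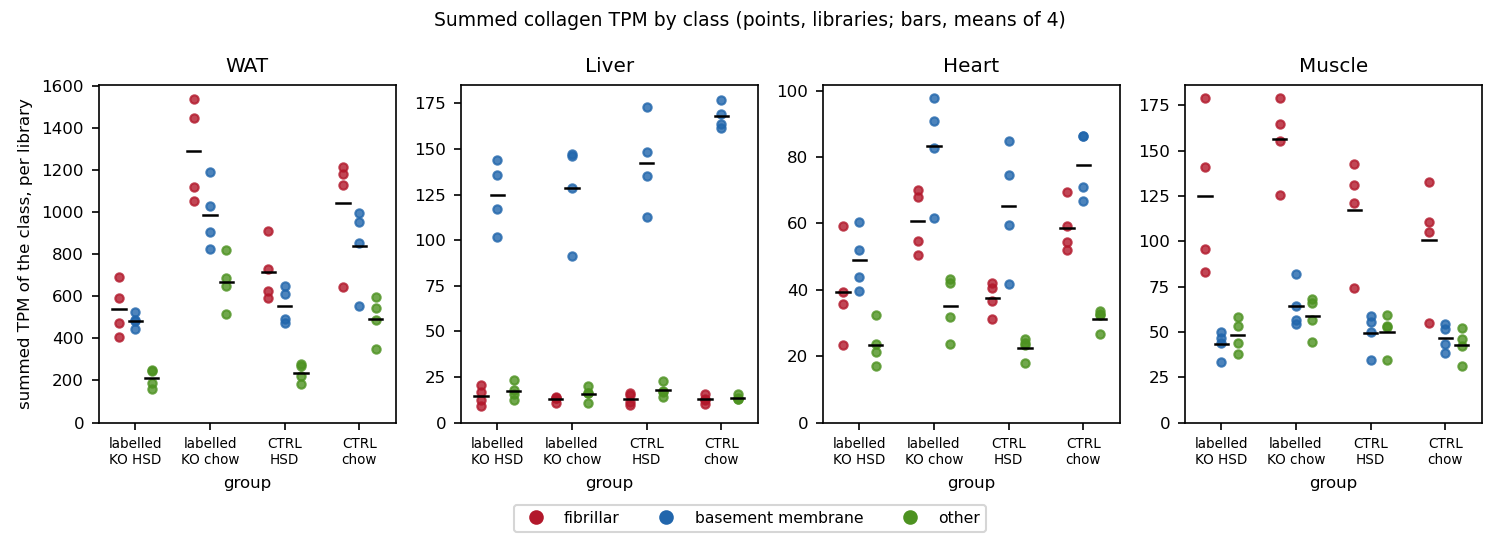
Summed TPM of the fibrillar, basement membrane and other collagen chains in each of the 64 libraries (points), by tissue (panels) and group on the horizontal axis, with bars at the means of 4. In WAT the points of labelled KO mice on HSD lie below those of labelled KO mice on chow in all 3 classes, and fibrillar sums in CTRL mice on HSD reach 593 to 908 TPM, against 644 to 1215 TPM on chow.

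Among labelled KO mice, 18 collagen chains fell in WAT on HSD relative to chow and none rose. They were 6 of 7 fibrillar chains tested, 5 of 8 basement membrane chains and 7 of 14 other chains, 18 of the 29 members that passed the filter on low counts (edgeR's quasi-likelihood test, 2-sided, Benjamini-Hochberg adjusted p at most 0.05 over all 13255 genes tested). Of all genes tested in this comparison 3.68% fell. The median log2 fold change was -0.94 over the 29 chains and 0.00 over all genes tested. The 8 chains not tested in WAT (Col2a1, Col11a1, Col11a2, Col24a1, Col22a1, Col13a1, Col25a1 and Col26a1) reached at most 1.03 TPM in any WAT library. Of the 29 tested, 28 reached the count minimum in all 4 groups of WAT libraries and Col7a1 did not.

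The 3 chains of classical type VI collagen, which assemble with each other, all fell. Col6a1 stood at 96.7, 102, 72.9 and 60.3 TPM in labelled KO mice on HSD, against 304, 370, 244 and 303 TPM in labelled KO mice on chow. Col6a2 stood at 86.0, 68.1, 59.3 and 51.4 TPM on HSD, against 248, 308, 177 and 239 TPM on chow. Col6a3, whose cleaved end is the adipokine endotrophin, stood at 17.5, 16.4, 12.0 and 10.54 TPM on HSD, against 47.8, 58.5, 32.6 and 37.2 TPM on chow. In all 3 genes every HSD library lay below every chow library. The log2 fold changes were -1.76 ± 0.19 for Col6a1 (SE, adjusted p = 0.000173), -1.74 ± 0.23 for Col6a2 (adjusted p = 0.000788) and -1.56 ± 0.24 for Col6a3 (adjusted p = 0.00158). Col6a5 and Col6a6, the later-described type VI chains, did not pass the test, at 0.74 ± 0.41 (adjusted p = 0.299) and 0.03 ± 0.24 (adjusted p = 0.955); Col6a5 stood at 10.4 to 20.5 TPM on HSD, against 4.77 to 14.1 TPM on chow.

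The main fibrillar chains fell together. Col1a1 was at 37.8, 31.2, 26.3 and 17.6 TPM in labelled KO WAT on HSD, against 88.7, 79.0, 59.9 and 92.9 TPM on chow. Col1a2 was at 111, 114, 88.2 and 59.4 TPM on HSD, against 218, 213, 176 and 213 TPM on chow. Col3a1 was at 383, 305, 236 and 201 TPM on HSD, against 886, 774, 551 and 517 TPM on chow. No diet groups overlapped in these 3 genes, and their log2 fold changes were -1.38 ± 0.27 (adjusted p = 0.00739), -1.02 ± 0.18 (adjusted p = 0.00396) and -1.13 ± 0.22 (adjusted p = 0.0073).

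Type V collagen, which sits inside fibrils and limits their width, also fell. Col5a1 was at 27.5, 23.6, 23.6 and 21.9 TPM in labelled KO WAT on HSD, against 85.0, 89.7, 53.5 and 70.3 TPM on chow. Col5a2 was at 35.8, 29.9, 24.8 and 21.8 TPM on HSD, against 73.4, 75.1, 55.1 and 56.6 TPM on chow. The groups were apart in both genes, with log2 fold changes of -1.33 ± 0.19 for Col5a1 (adjusted p = 0.000924) and -1.08 ± 0.18 for Col5a2 (adjusted p = 0.00266). Col5a3 ranged over 75.5 to 96.5 TPM on HSD, against 156 to 215 TPM on chow (log2 fold change -0.94 ± 0.23, adjusted p = 0.0273). Col27a1 was the fibrillar chain that did not pass, at -0.43 ± 0.36 (adjusted p = 0.511) and 0.163 to 0.758 TPM over both groups.

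Of the 8 basement membrane chains 5 fell. Col4a1 and Col4a2 build the common type IV network as chains of the same molecules. Col4a1 was at 166, 170, 191 and 181 TPM in labelled KO mice on HSD, against 344, 421, 292 and 335 TPM in labelled KO mice on chow. Col4a2 was at 124, 103, 114 and 113 TPM on HSD, against 249, 306, 199 and 234 TPM on chow. HSD libraries were tightly grouped and all lay below the chow libraries in both genes. The log2 fold change was -0.99 ± 0.19 for Col4a1 (adjusted p = 0.00584) and -0.99 ± 0.18 for Col4a2 (adjusted p = 0.00405). Col18a1 ranged over 31.8 to 56.3 TPM on HSD, against 76.0 to 93.8 TPM on chow (-0.79 ± 0.15, adjusted p = 0.0073), Col15a1 over 107 to 161 TPM on HSD, against 221 to 350 TPM on chow (-0.88 ± 0.25, adjusted p = 0.0478), and Col4a5, a chain of specialised type IV networks, over 5.98 to 10.7 TPM on HSD, against 10.8 to 17.3 TPM on chow (-0.73 ± 0.18, adjusted p = 0.0241). Its partners Col4a3, Col4a4 and Col4a6 did not pass, at -0.42, -0.18 and -0.30 (adjusted p = 0.204, 0.595 and 0.491), and each overlapped between diets. The difference between the chains that passed and those that did not was not tested.

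Among the chains that coat fibrils or form lattices, Col12a1 and Col16a1 had the steepest fitted changes. Col12a1, which bridges fibrils to their surroundings, stood at 0.842, 0.524, 0.831 and 0.834 TPM in labelled KO WAT on HSD, against 5.77, 5.88, 2.43 and 4.16 TPM on chow (log2 fold change -2.17 ± 0.34, adjusted p = 0.00163). Col8a1, a short chain made by vascular and mesenchymal cells, stood at 2.49, 3.06, 2.21 and 2.12 TPM on HSD, against 6.38, 11.3, 4.42 and 5.84 TPM on chow (-1.38 ± 0.28, adjusted p = 0.00867). Both genes had all HSD libraries below all chow libraries. Col16a1 was listed at 0 TPM in 1 HSD library and overlapped between diets, at 0 to 3.81 TPM on HSD, against 3.47 to 8.14 TPM on chow (-2.71 ± 0.71, adjusted p = 0.0348). Col14a1 ranged over 9.91 to 19.2 TPM on HSD, against 26.2 to 40.2 TPM on chow (-0.96 ± 0.27, adjusted p = 0.0478). The transmembrane chain Col23a1 leaned the other way without passing, at 0.63 ± 0.26 (adjusted p = 0.149).

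The ranges of the diet groups were apart for 17 of the 29 chains tested, all of them among the 18 that fell. The same libraries gave the calls, so this describes the called chains and adds no support to them. Genes with ranges apart were not counted over all genes tested. With each of the 8 libraries left out in turn, 13 to 18 chains fell, and 13 did so in all 8 fits; Col14a1, Col15a1 and Col16a1 lost their call in 6 fits, Col5a3 in 5 and Col4a5 in 4, at adjusted p between 0.0521 and 0.139, and none lost it without replicate 3 on chow, the library with Alb, or without replicate 1 on HSD. Col5a3 also kept its call without replicate 4 on chow, and Col4a5 without replicate 4 on chow or replicate 2 on HSD.

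**Figure D3:**
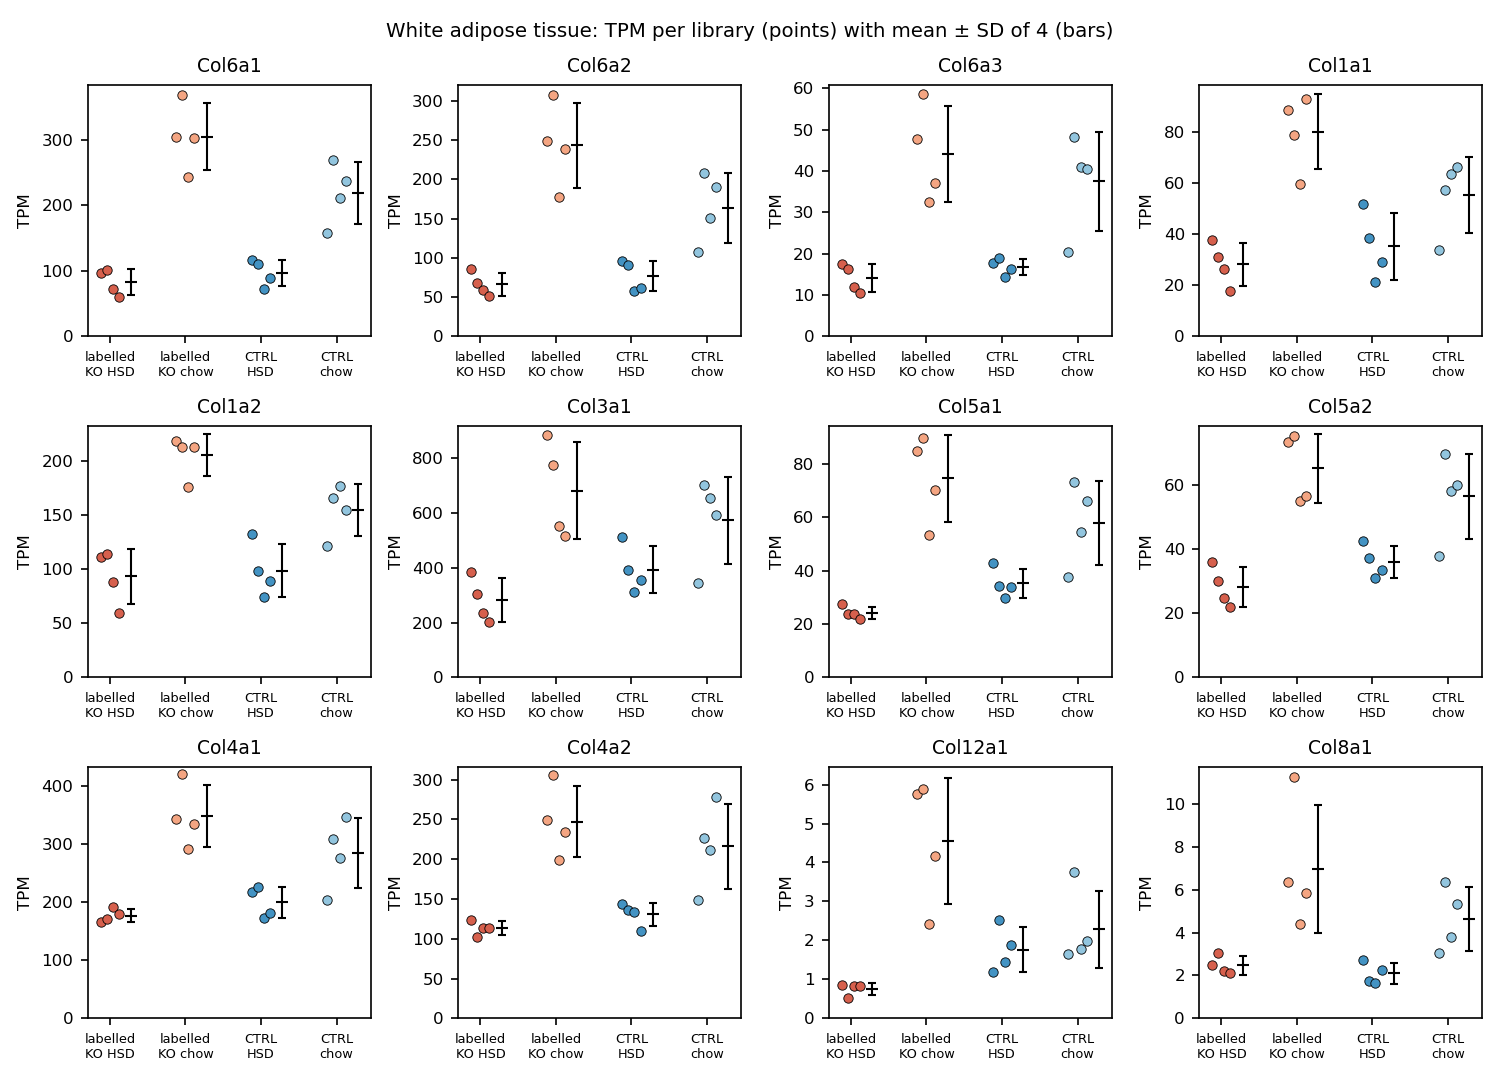
TPM of 12 collagen chains in each WAT library (points; bars and whiskers show mean ± SD, n = 4), with labelled KO on HSD, labelled KO on chow, CTRL on HSD and CTRL on chow along the horizontal axis of each panel. For each of the 12 chains labelled KO libraries on HSD lie below those on chow, as for Col6a1 with 60.3 to 102 TPM on HSD, against 244 to 370 TPM on chow, while most CTRL diet groups overlap.

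In CTRL mice 3 chains fell in WAT on HSD, all of type VI. Of 29 chains tested 3 passed, where 2.92% of all genes tested fell, and 27 of the 29 had a log2 fold change below 0 (median -0.46, against -0.04 over all genes tested). Col6a1 was at 116, 110, 72.3 and 89.5 TPM in CTRL mice on HSD, against 158, 270, 211 and 237 TPM in CTRL mice on chow. Col6a2 was at 96.1, 90.5, 57.9 and 61.9 TPM on HSD, against 107, 207, 151 and 190 TPM on chow. Col6a3 was at 17.6, 19.0, 14.4 and 16.3 TPM on HSD, against 20.5, 48.2, 40.9 and 40.4 TPM on chow. In all 3 the diet groups were apart, with chow replicate 1 nearest to the HSD libraries. The log2 fold changes were -1.01 ± 0.18 (adjusted p = 0.009), -0.93 ± 0.22 (adjusted p = 0.0305) and -0.98 ± 0.23 (adjusted p = 0.0295).

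The fibrillar and common type IV chains did not pass the test in CTRL mice. Col1a1 was at 51.8, 38.7, 21.3 and 29.1 TPM in CTRL WAT on HSD, against 33.8, 57.2, 63.7 and 66.4 TPM on chow. Col1a2 was at 133, 98.5, 74.2 and 89.2 TPM on HSD, against 122, 166, 177 and 155 TPM on chow. Col3a1 was at 511, 393, 313 and 357 TPM on HSD, against 344, 701, 655 and 594 TPM on chow. Each overlapped between diets through the low chow replicate 1, and their log2 fold changes were -0.49, -0.48 and -0.41 (adjusted p = 0.276, 0.122 and 0.277). Col4a1 was at 218, 227, 173 and 181 TPM on HSD, against 205, 309, 276 and 348 TPM on chow (-0.45, adjusted p = 0.163), and Col4a2 at 144, 135, 134 and 110 TPM on HSD, against 149, 226, 211 and 278 TPM on chow (-0.56 ± 0.17, adjusted p = 0.0723). Col4a2 kept its diet groups apart and Col4a1 did not. Col8a1 was also apart, at 1.64 to 2.73 TPM on HSD, against 3.04 to 6.38 TPM on chow, and missed the threshold at -0.98 ± 0.28 (adjusted p = 0.0535).

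The CTRL result rested on a few libraries. Without chow replicate 1 it was 7 chains; without chow replicate 3 it was 4; without chow replicate 2, chow replicate 4 or any 1 HSD replicate it was 1, Col6a1, with Col6a2 and Col6a3 at adjusted p between 0.055 and 0.105. Chow replicates 2 and 4 had counts that rose with transcript length relative to the other WAT libraries (slopes of 0.21 and 0.13 in log2 CPM per log2 length). Collagen transcripts had a median length 2.245 times that of all genes. Without both libraries no chain passed, but calls were lost over all genes too. Over all genes 245 rose and 387 fell in the main fit, and 3 rose and 6 fell without both libraries. With each library's length trend removed only Col6a1 passed, 25 of 29 chains lay below 0 and the median was -0.27. In that fit 72 of all genes rose and 120 fell.

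Labelled KO and CTRL mice differed in no chain past the threshold in WAT. On chow none of 29 chains passed edgeR's test, where 6.68% of all genes tested did; 10 had an unadjusted p under 0.05, DESeq2 called 3, where it called 11.9% of all genes it gave an adjusted p, limma called 0, and without labelled KO chow replicate 3 edgeR called 2. All 7 fibrillar chains tested and 23 of the 29 had a higher level in labelled KO mice than in CTRL mice on chow, with a median log2 fold change of 0.30, against 0.02 over all genes tested, and of 0.58 with length trends removed. The 3 that DESeq2 called were Col6a1 (0.54, adjusted p = 0.0346), Col6a2 (0.63, adjusted p = 0.0398) and Col6a5 (-1.24, adjusted p = 0.0492). On HSD none passed edgeR's test, where 0.106% of all genes did; 3 had an unadjusted p under 0.05, DESeq2 and limma called 0, and 23 of 29 leaned lower in labelled KO mice.

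The difference between the diet responses of the genotypes was tested as an interaction. None of 29 chains passed edgeR's test, where 0.573% of all genes did; 13 had an unadjusted p under 0.05, DESeq2 called 2 (3.92% of all genes) and limma 0, and edgeR called 1 without CTRL chow replicate 2 or CTRL HSD replicate 3. For 25 of the 29 the fitted HSD response was lower in labelled KO mice than in CTRL mice. Col23a1 (1.42 ± 0.37, adjusted p = 0.0734) and Col12a1 (-1.48 ± 0.46, adjusted p = 0.12) came nearest, and they were the 2 that DESeq2 called. The counts of 18 and 3 chains are therefore not a test of a difference between the genotypes.

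**Figure D4:**
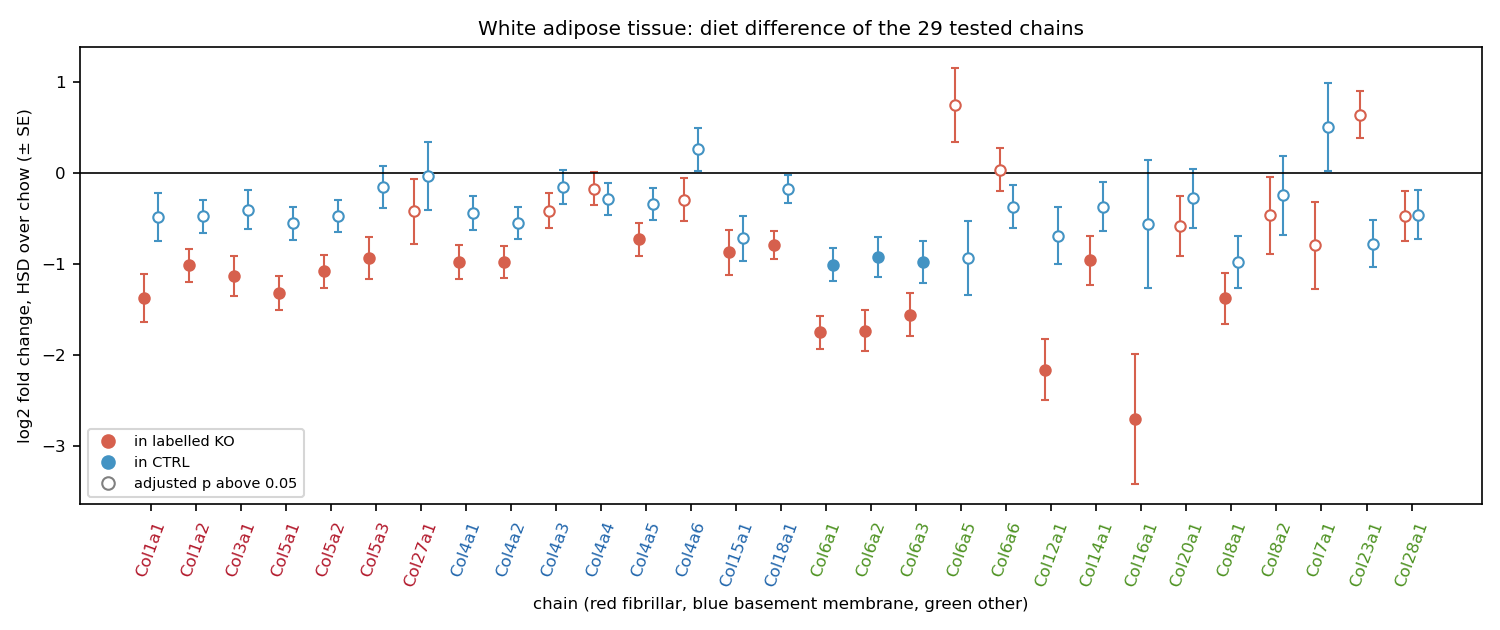
Log2 fold change of HSD over chow in WAT for the 29 collagen chains tested, with labelled KO mice in red and CTRL mice in blue (points with SE bars; open points have an adjusted p above 0.05 by edgeR). Filled red points mark 18 chains, all below 0, and filled blue points mark Col6a1, Col6a2 and Col6a3.

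Averaged over both genotypes, a comparison added after the data were seen, 18 of 29 chains fell in WAT on HSD, where 6.5% of all genes tested fell. All 29 fitted changes lay below 0 (27 with length trends removed and 27 by limma), with a median of -0.67, against -0.02 over all genes tested. Col6a1 fell by 1.38 ± 0.13 on the log2 scale, Col6a2 by 1.33 ± 0.16, Col12a1 by 1.43 ± 0.23 and Col5a1 by 0.94 ± 0.13. With each of the 16 libraries left out in turn 15 to 18 chains passed, and Col5a3, Col14a1 and Col16a1 were the ones that lost their call.

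In liver 1 of 20 chains tested fell on HSD, and only when the genotypes were averaged, a comparison added after the data were seen. Col27a1, a fibrillar chain, was at 1.05, 0.566, 1.07 and 0.396 TPM in labelled KO mice on HSD, against 1.72, 1.80, 1.65 and 1.64 TPM in labelled KO mice on chow, and at 1.14, 0.547, 0.470 and 0.618 TPM in CTRL mice on HSD, against 0.537, 1.30, 1.68 and 1.26 TPM in CTRL mice on chow. The diet groups were apart in labelled KO mice and overlapped in CTRL mice, where chow replicate 1 was low. The mean change was -1.11 ± 0.25 (adjusted p = 0.0173), and it passed in all 16 fits that left out 1 library (-1.28 to -0.99). It was the only one of 20 chains tested to pass, where 2.92% of all genes tested fell. A single call among 20 chains is near that share and is no result about the chains as a group. Col18a1, the abundant liver chain, was at 95.1 to 133 TPM in labelled KO mice on HSD, against 86.4 to 141 TPM in labelled KO mice on chow, and at 105 to 163 TPM in CTRL mice on HSD, against 153 to 169 TPM in CTRL mice on chow; its mean change of -0.33 ± 0.10 did not pass (adjusted p = 0.0732).

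Within single genotypes or diets no liver chain passed edgeR's test. For HSD over chow 0 of 20 passed in labelled KO mice (0.00888% of all genes tested passed; 2 chains at an unadjusted p under 0.05) and 0 in CTRL mice (4.67% of genes; 2 chains). For labelled KO over CTRL 0 passed on chow (0% of genes; 6 chains) and 0 on HSD (0.0711% of genes; 0 chains), and 0 passed for the interaction (0% of genes; 1 chain). DESeq2 and limma called 0 chains in each of these 5 comparisons, and without CTRL HSD replicate 1 edgeR called 1 for HSD over chow in CTRL mice. Of the 20 chains, 18 reached the count minimum in all 4 liver groups.

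In heart most chains leaned lower on HSD. In the mean of the genotypes, again a comparison added after the data were seen, Col6a1 fell. It was at 9.37, 6.99, 7.67 and 4.85 TPM in labelled KO mice on HSD, against 9.29, 10.1, 12.9 and 13.7 TPM in labelled KO mice on chow, and at 7.79, 7.47, 7.33 and 5.74 TPM in CTRL mice on HSD, against 8.81, 9.84, 11.2 and 11.9 TPM in CTRL mice on chow. The CTRL diet groups were apart, and the labelled KO ones overlapped through replicate 1 on HSD. Its mean change was -0.47 ± 0.09 (adjusted p = 0.0282), the only one of 28 chains to pass, where 0.124% of all genes tested fell. That call was lost in 10 of the 16 fits that left out 1 library, at adjusted p between 0.0525 and 0.0832; it held without labelled KO chow replicate 1 or 3, labelled KO HSD replicate 1 or 4, CTRL chow replicate 1 or CTRL HSD replicate 1, and 2 chains passed without labelled KO HSD replicate 1. Col3a1 came next, at 13.3 to 27.3 TPM in labelled KO mice on HSD, against 29.1 to 35.6 TPM in labelled KO mice on chow, and at 16.4 to 22.9 TPM in CTRL mice on HSD, against 25.2 to 41.3 TPM in CTRL mice on chow. Both pairs were apart, with a mean change of -0.72 ± 0.14 (adjusted p = 0.0536). Of the 28 chains, 20 reached the count minimum in all 4 heart groups. Endothelial markers moved with these chains: 1 of 8 fell in the mean of the genotypes and all 8 had a fitted change below 0. Their summed level was 123 to 150.3 TPM in labelled KO mice on HSD, against 155 to 199 TPM in labelled KO mice on chow, and 122 to 149.8 TPM in CTRL mice on HSD, against 150.2 to 173 TPM in CTRL mice on chow. None of 7 fibroblast markers passed edgeR's test there (1 at an unadjusted p under 0.05; DESeq2 0, limma 1), with sums of 410.3 to 564 TPM in labelled KO mice on HSD, against 352 to 518 TPM in labelled KO mice on chow, and 345 to 396 TPM in CTRL mice on HSD, against 394.5 to 559 TPM in CTRL mice on chow. The part of these cell types in the change of the heart chains was not tested.

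For HSD over chow 0 of 28 heart chains passed edgeR's test in labelled KO mice (0.14% of all genes tested passed; 9 chains at an unadjusted p under 0.05) and 0 in CTRL mice (0.0247%; 5 chains). Of these, 22 and 27 chains had a fitted change below 0, with medians of -0.33 and -0.39. DESeq2 called 3 in labelled KO mice (0.643% of all genes), Col3a1 (-0.80, adjusted p = 0.0083), Col5a3 (-1.06, adjusted p = 0.0334) and Col6a1 (-0.51, adjusted p = 0.025), and 0 in CTRL mice, and limma called 0 in both; without labelled KO HSD replicate 1 edgeR called 1 in labelled KO mice. For labelled KO over CTRL 0 passed on chow (0%; 0 chains) and 0 on HSD (0.0412%; 3 chains), and 0 passed for the interaction (0.00824%; 2 chains), with 0 called by DESeq2 and limma in each.

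No muscle chain passed edgeR's test in any of the 6 comparisons made there. For HSD over chow 0 of 32 passed in labelled KO mice (0.00827% of all genes tested passed; 5 chains at an unadjusted p under 0.05), in CTRL mice (0.091%; 3 chains) and in the mean of the genotypes (1.12%; 7 chains). For labelled KO over CTRL 0 passed on chow (0%; 8 chains) and on HSD (0%; 0 chains), and 0 for the interaction (0%; 3 chains). DESeq2 called Col4a1 (-0.89, adjusted p = 0.0256) and Col4a2 (-0.51, adjusted p = 0.0494) for HSD over chow in labelled KO mice (0.852% of all genes) and 1 chain in the mean, limma called 1 in the mean, and both called 0 in the remaining comparisons. On chow 29 of 32 chains leaned higher in labelled KO muscle than in CTRL muscle (median log2 fold change 0.47, and 0.30 by limma), with Col6a1 at 0.54 ± 0.17 (adjusted p = 0.343). With length trends removed 28 of 32 leaned higher, with a median of 0.36. CTRL chow replicate 1 had a length slope of -0.20 (log2 CPM per log2 length). Its collagen sum was the lowest of the muscle libraries, at 124 TPM, with 190 to 239 TPM in the rest of its group. Summed fibroblast markers averaged 470.5 ± 42.5 TPM in labelled KO muscle on chow and 337 ± 94.1 TPM in CTRL muscle on chow, and summed endothelial markers 139 ± 9.02 TPM and 116 ± 11.7 TPM in the same groups (SD, n = 4 each); their part in these values was not tested. Of the 32 chains, 27 reached the count minimum in all 4 muscle groups. Leaving out the muscle library with cardiomyocyte markers gave 0 calls in each of these comparisons.

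Whether the HSD effect in WAT differed from that in the other tissues was tested in 1 fit over all 64 libraries, as the mean of both genotypes. Of 35 chains tested, 11 had a lower HSD effect in WAT than in liver (5.57% of 14592 genes tested did; the 11 include Col13a1, which had 34 estimated counts summed over the 16 WAT libraries), 2 lower than in heart (0.562%) and 9 lower than in muscle (2.07%), and none a higher one. Col6a1 was lower in all 3 tests, at -1.53 ± 0.21 against liver (adjusted p = 7.25e-07), -0.89 ± 0.17 against heart (adjusted p = 0.00288) and -1.25 ± 0.17 against muscle (log2 scale, ± SE). Col8a1 was also lower against heart, at -1.16 ± 0.25 (adjusted p = 0.00835), and against muscle, at -1.31 ± 0.25. Among fibrillar chains, Col1a2, Col3a1 and Col5a2 were lower than in liver (-0.90, -0.91 and -1.01), Col5a1 and Col5a2 lower than in muscle (-0.91 and -0.73), and none passed against heart. These tests share the WAT libraries, so their calls are not independent of each other. The fit had no block for mice, so any pairing of tissues by mouse was ignored. Counts with the title number as a block are given below with the other settings. Leaving out each title number, 1 library per tissue, gave 5 to 13 chains against liver, with 5 without number 15 and 7 without number 10, 2 to 4 against heart, with 4 without number 9, and 7 to 9 against muscle.

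**Figure D5:**
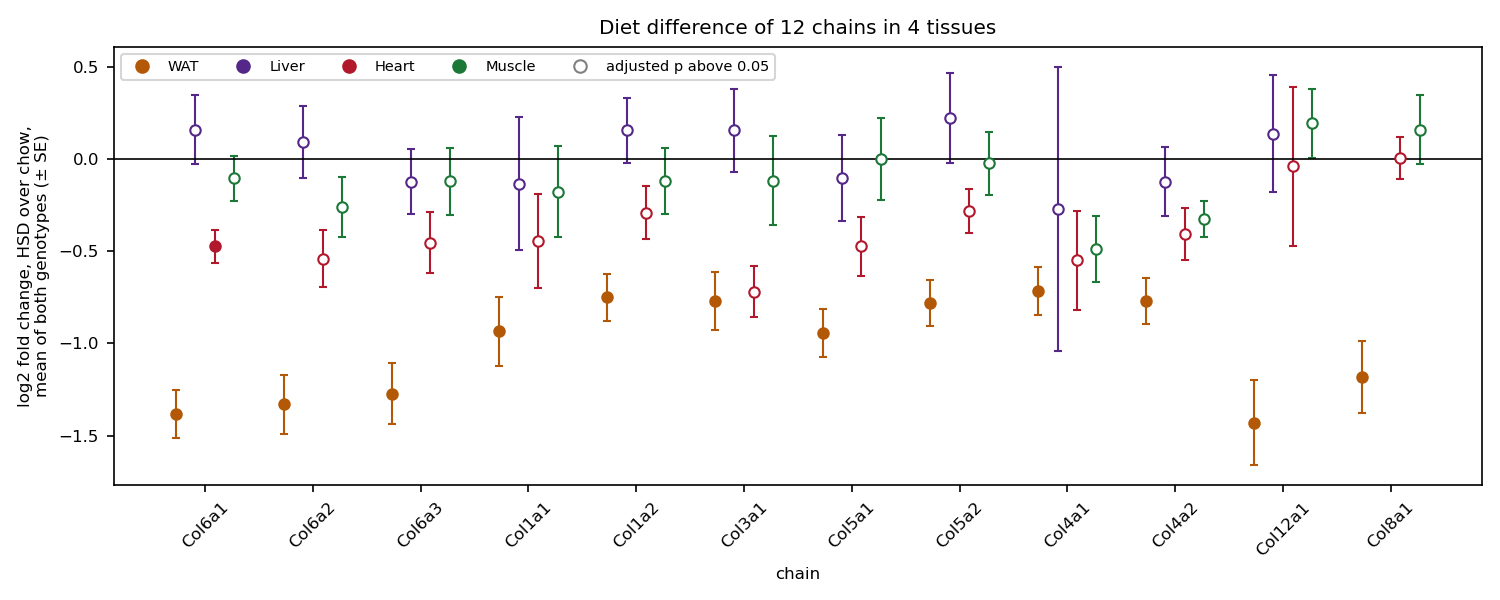
Log2 fold change of HSD over chow, averaged over both genotypes, for 12 collagen chains in WAT, liver, heart and muscle (points with SE bars; open points have an adjusted p above 0.05 within the tissue by edgeR). For Col6a1 the WAT point, at -1.38, lies below those of the other tissues, with heart at -0.47.

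Some of the genes that make, process or hold collagen also fell in WAT of labelled KO mice. Of all genes tested 3.68% fell in that comparison. A single call in a list is no result about that list. Of 12 genes for processing and cross-linking tested, 6 fell on HSD: Loxl2 (log2 fold change -1.51 ± 0.21, adjusted p = 0.00109) and Lox (-1.01 ± 0.18, adjusted p = 0.00542), which oxidise lysines for cross-links, with Loxl3 (-0.83), Bmp1 (-1.09 ± 0.16, adjusted p = 0.00128), which removes the propeptides of fibrillar chains from the C-terminal end, Adamts2 (-0.98, adjusted p = 0.00162), which removes them from the N-terminal end, and Pcolce (-1.05), which enhances Bmp1. Of 17 genes for folding and modification 6 fell, among them Serpinh1 (-1.21 ± 0.23, adjusted p = 0.00584), the collagen chaperone HSP47, the lysyl hydroxylase Plod1 (-0.54, adjusted p = 0.00915) and the prolyl hydroxylase P3h1 (-0.71, adjusted p = 0.00554). Of 8 fibril-associated proteins 5 fell: Sparc, a collagen-binding protein, averaged 1739 ± 172 TPM in labelled KO mice on HSD and 3916 ± 641 TPM in labelled KO mice on chow (SD, n = 4 each), and Bgn, Postn, Lum and Fmod changed by -0.92, -0.98, -0.79 and -0.93. Breakdown genes fell too, 4 of 10: the collagen uptake receptor Mrc2 (-1.02), the proteases Ctsk (-0.81) and Mmp2 (-0.44), and the protease inhibitor Timp1 (-1.15). None of 7 collagen receptor genes passed edgeR's test, with 2 at an unadjusted p under 0.05 and 1 called by DESeq2 and 1 by limma. Of the remaining lists 3 of 10 basement membrane partners fell (Sparc, Hspg2 at -0.83 and Lamc1 at -0.40), and 1 of 10 genes of TGF-beta signalling did (Tgfb3, -0.46).

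The medians of these lists were -0.41 for folding, -0.89 for processing and cross-linking, -0.86 for fibril-associated proteins, -0.40 for breakdown, -0.36 for receptors, -0.34 for basement membrane partners and -0.30 for TGF-beta signalling, against 0.00 over all genes tested. In CTRL WAT 0 of 17 folding genes passed edgeR's test for HSD over chow (4 at an unadjusted p under 0.05; DESeq2 0, limma 3), as did 0 of 10 TGF-beta genes (2 at an unadjusted p under 0.05; DESeq2 0, limma 2). There 1 of 12 processing genes fell on HSD by edgeR's test (Adamts2, -0.55, adjusted p = 0.0475), where 2.92% of all genes tested fell. Of 8 fibril-associated genes 3 fell (Postn, Bgn and Sparc at -1.01, -0.74 and -0.62). Of 10 breakdown genes 2 fell (Mmp2 and Ctsk at -0.62 and -1.04). So did 1 of 7 receptors (Ddr2, -0.42) and 3 of 10 basement membrane partners (Sparc, Hspg2 and Lamc1). The single calls are no result about their lists.

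Markers of the cell types that make collagen in fat moved in part with the chains. Of all genes tested 3.68% fell in labelled KO WAT on HSD. A single call in a short list is no result about its cell type. In labelled KO WAT 3 of 7 fibroblast markers fell on HSD (Pdgfrb -0.65, Dpt -0.71 and Lum -0.79). The summed level of the 7 was 1512 to 2263 TPM on HSD, against 2000 to 2574 TPM on chow. Most of it was Dcn, at 1165 to 1746 TPM on HSD, against 1174 to 1628 TPM on chow. Endothelial markers fell in 2 of 8 (Cdh5 -0.65 and Cldn5 -1.03), with sums of 321 to 350 TPM on HSD, against 445 to 627 TPM on chow. None of 6 pericyte and smooth muscle markers passed edgeR's test (2 at an unadjusted p under 0.05; DESeq2 1, limma 1); their sums were 254 to 430 TPM on HSD, against 395 to 515 TPM on chow, although their median log2 fold change was 0.19. Mesothelial markers fell in 1 of 4 (Msln -1.17), with sums of 84.2 to 185 TPM on HSD, against 243 to 358 TPM on chow, and macrophage markers in 1 of 6 (Itgax), with sums of 207 to 330 TPM on HSD, against 314 to 430 TPM on chow. Adipocyte markers fell in 1 of 6 (Lep, the hormone leptin, -1.14), with sums of 18104 to 32991 TPM on HSD, against 16200 to 22649 TPM on chow. Cfd made up much of these sums, at 8401 to 19892 TPM on HSD, against 4299 to 10666 TPM on chow. Adipoq was at 4223 to 5429 TPM on HSD, against 4248 to 5116 TPM on chow. None of the 4 hepatocyte, 4 lymphocyte, 3 epithelial, 4 cardiomyocyte, 2 chondrocyte and 1 skeletal muscle fibre markers tested passed edgeR's test; 3 hepatocyte markers had an unadjusted p under 0.05 and none of the other lists' markers did, and DESeq2 and limma called 0. Of 3 hepatic stellate markers tested Pdgfrb fell, which is also on the fibroblast list, and Reln (2.58, adjusted p = 0.0811) and Des (-0.09) did not pass. The sums of 5 skeletal muscle fibre markers were 9.84 to 84.4 TPM in labelled KO WAT on HSD, against 41.6 to 136 TPM on chow, and came mainly from Acta1 (7.33 to 133 TPM over the 16 WAT libraries), while Ckm was at no more than 0.965 TPM in any of them. The sums of 4 hepatic stellate markers were 22.3 to 30.01 TPM in labelled KO WAT on HSD, against 35.6 to 41.96 TPM on chow, and Lrat was at no more than 0.21 TPM.

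In CTRL WAT endothelial markers fell in 5 of 8 on HSD (Pecam1, Vwf, Tek, Cdh5 and Kdr), with sums of 254 to 328 TPM, against 369 to 538 TPM on chow, and Pdgfrb fell by 0.59 on the log2 scale. Summed fibroblast markers were at 1601 to 2378 TPM in CTRL mice on HSD, against 1940 to 2380 TPM on chow. Again most of this was Dcn, at 1211 to 1859 TPM on HSD, against 1313 to 1750 TPM on chow. Of 6 pericyte and smooth muscle markers 2 fell (Myh11 and Acta2), with sums of 204 to 242 TPM on HSD, against 316 to 512 TPM on chow. Lep (-0.94), Itgax (-1.51) and Cd68 also fell. Of all genes tested 2.92% fell in CTRL WAT on HSD. Mesothelial markers leaned the other way from labelled KO mice: none of 4 passed edgeR's test (4 at an unadjusted p under 0.05; DESeq2 1, limma 0), all 4 had a log2 fold change above 0, and their sums were 117 to 368 TPM in CTRL mice on HSD, against 128 to 234 TPM on chow. The part of these cell types in the change of the collagen chains was not tested.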

How the data were processed

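RNA-seq of 64 libraries (16 groups of 4) was available as 2 tables of 19521 genes. The authors deposited estimated counts per gene, rounded here to whole numbers, and TPM values per gene; the submitters' processing notes name kallisto and GRCm38, whose version, annotation and use of strand the sources used here do not give. Total counts of 5724366 to 12188623 per library limit the precision for low chains. No other per-sample columns were left unmatched (0).

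Each tissue was fitted in edgeR 4.0.16 (R 4.3.3) with 4 group means, filterByExpr with a minimum count of 10, TMM scaling and robust quasi-likelihood F-tests, 2-sided, with Benjamini-Hochberg adjustment over all genes tested and a threshold of 0.05. SE is the absolute log2 fold change over the square root of F. The means over both genotypes within a tissue were added after the data were seen. Differences of the HSD effect between tissues came from 1 fit of all 64 libraries. The sources used here state no test. Levels are the deposited TPM; classes are sums of TPM. Promoter windows come from RefSeq (GRCm38.p6) and positions from GENCODE M21. The scripts were tested on simulated data.

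Alternatives were DESeq2 1.42.0, limma 3.58.1 on log2(TPM + 1), DESeq2 size factors, no low-count filter, only the groups compared, removal of each library's trend with transcript length, leaving out libraries with a slope beyond 0.1, leaving out each library, a title-number block, and CPM for the order of tissues. The members, gene lists and marker lists were chosen with earlier results of these data known. Any member may be named; per-library values were given for the 8 called chains with the smallest p per comparison and for Col1a1, Col1a2, Col3a1, Col4a1, Col4a2, Col6a1, Col6a2 and Col6a3 in WAT, and other genes come from the lists, at most 6 per list by smallest p.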

Additional observations from a re-analysis of the deposited data

Results flagged for a closer look

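Some libraries lay far from the other 3 of their group. Of 96 groups of 4 looked at (class sums in every group and 12 chains in WAT) 7 had such a library, where chance gives about 1 in 20. The fibrillar sum was 644 TPM in 1 CTRL WAT library on chow, with the next at 1129 TPM, and 10.53 TPM in 1 labelled KO liver library on chow, with the next at 13.3 TPM. The sum of other chains was 15.5 TPM in 1 CTRL liver library on chow, with the next at 13.3 TPM, and 26.7 TPM in 1 CTRL heart library on chow, with the next at 32.4 TPM. Col12a1 was at 0.524 TPM in 1 labelled KO WAT library on HSD, with the next at 0.831 TPM, and at 3.75 TPM in 1 CTRL WAT library on chow, with the next at 1.98 TPM. Col1a2 was at 176 TPM in 1 labelled KO WAT library on chow, with the next at 213 TPM.

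The HSD effect differed between tissues in the test of the difference itself for 11 chains between WAT and liver, 2 between WAT and heart and 9 between WAT and muscle. For WAT minus liver the log2 differences were -1.53 for Col6a1, -1.41 for Col6a2, -1.14 for Col6a3, -1.56 for Col12a1, -2.38 for Col13a1, -1.23 for Col15a1, -1.01 for Col5a2, -0.91 for Col3a1, -0.90 for Col1a2, -0.79 for Col14a1 and -0.63 for Col4a2. For WAT minus heart they were -0.89 for Col6a1 and -1.16 for Col8a1. For WAT minus muscle they were -1.25 for Col6a1, -1.04 for Col6a2, -1.13 for Col6a3, -1.59 for Col12a1, -0.99 for Col14a1, -1.31 for Col8a1, -0.91 for Col4a5, -0.91 for Col5a1 and -0.73 for Col5a2. Col13a1 had 34 estimated counts summed over the 16 WAT libraries, with 6 of them at 0, was too low to be tested in WAT alone and entered the joint fit through the other tissues.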

How the results depend on the processing

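Counts of called chains were equal to or within 1.5 times their value in 147 of 170 fits under other settings than leaving out libraries. That tally includes comparisons with 0 calls in both fits, so it does not measure how stable the called chains were. Counted over each called chain and such setting, the call was kept in 371 cases and lost in 31. DESeq2 called more chains in liver for the mean of the genotypes (2), in WAT for HSD over chow in CTRL mice (6), for labelled KO over CTRL on chow (3) and for the interaction (2), in heart for HSD over chow in labelled KO mice (3) and for the mean (4), in muscle for labelled KO mice (2) and the mean (1), and for WAT minus heart (4). Its calls over all genes were also more numerous than edgeR's. They were 480 up and 494 down for the liver mean (edgeR 300 and 329) and 574 and 644 in CTRL WAT (245 and 387). For the heart mean they were 42 and 67 (6 and 15), for the muscle mean 201 and 193 (89 and 46). For WAT minus heart they were 161 and 189 (89 and 82). limma called 2 in liver for the mean, 9 in WAT of CTRL mice, 4 in heart and 1 in muscle for the mean, and 19, 5 and 15 for WAT minus liver, heart and muscle. Over all genes limma called 886 up and 135 down for the liver mean, and 130 and 1322 in WAT of CTRL mice. It called 5 and 134 for the heart mean, and 72 and 13 for the muscle mean. For WAT minus liver, heart and muscle it called 307 and 4041, 156 and 340, and 192 and 2023. There edgeR called 740 and 813, 89 and 82, and 438 and 302. On limma's scale the median of all genes moved by -0.12 for HSD over chow in WAT of labelled KO mice, -0.17 in CTRL mice and -0.21 for WAT minus liver. With length trends removed 1 chain was called in WAT of CTRL mice and 1 in muscle for the mean, and without the libraries with steep trends 0 in WAT of CTRL mice and 1 for the interaction. With only the 8 libraries compared 1 chain was called for labelled KO over CTRL in WAT on chow. By CPM 17 chains, in place of 23, were highest in WAT. The causes were not tested.

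With libraries left out in turn, counts ranged over 13 to 18 (WAT, labelled KO mice), 1 to 7 (WAT, CTRL mice), 0 to 2 (WAT, genotype on chow), 0 to 1 (WAT, interaction), 15 to 18 (WAT, mean), 0 to 1 (liver, CTRL mice), 1 to 2 (liver, mean), 0 to 1 (heart, labelled KO mice) and 0 to 2 (heart, mean). Differences from WAT ranged over 5 to 13 (liver), 2 to 4 (heart) and 7 to 9 (muscle). No called chain turned its direction under any setting run. For comparisons within a tissue, no paired analysis was possible because title numbers do not repeat there. Across tissues the numbers repeat but are not stated to mark mice. Of 96 same-numbered pairs 65 correlated above 0.1 (median r 0.161 over 6826 genes). The low correlation of the rest does not show that the numbers mark different mice. The main comparison of tissues had no block, so it ignores any pairing by mouse. In 122 of 192 cases a library correlated best with its own number in another tissue, a hint from the data. With the number as a replicate block 12, 4 and 11 chains were called for WAT minus liver, heart and muscle.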

Other observations

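Ratios between the chains of a collagen type are given as a description, without a test. The TPM of Col3a1 over Col1a1 averaged 8.64 to 11.75 in the 4 WAT groups, 2.36 to 2.69 in the muscle groups, 5.57 to 6.202 in heart and 4.84 to 22.8 in liver. Col6a2 over Col6a3 averaged 4.48 to 5.58 in WAT, 2.49 to 3.13 in heart, 2.70 to 3.40 in muscle and 1.02 to 2.08 in liver. Col4a1 over Col4a2 averaged 1.32 to 1.57 in the WAT groups, 1.11 to 1.34 in the muscle groups, 1.14 to 1.31 in the heart groups and 0.966 to 1.92 in liver. In WAT the last ratio averaged 1.57 ± 0.15 in labelled KO mice on HSD, 1.42 ± 0.04 in labelled KO mice on chow, 1.53 ± 0.17 in CTRL mice on HSD and 1.32 ± 0.06 in CTRL mice on chow (SD, n = 4 each), with the diet groups overlapping in both genotypes.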
